A study of Danio rerio with 2 samples.

Results

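Transcripts of the cyclin and cyclin-dependent kinase genes were examined in the RNA that came down with Flag-tagged Cpeb1b from zebrafish embryos. A gene was taken as a member when its Ensembl gene name, in any letter case, began with ccn and a letter, cdk and a digit, cdkn, cdc25, cdc20, wee1 or pkmyt1. The rule found 67 members among 33737 rows of the deposited table, each row being 1 Ensembl gene. They carried 62 distinct names, because 5 names stood on a pair of rows each. Names are written as the gene name table gives them, so that many are in capitals.

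The embryos were of wild type genotype, were injected with Flag-cpeb1b mRNA and were collected at 16 h post-fertilization (hpf), during somite formation. The series has this 1 group with 2 samples, described as biological replicates, and every value below is the authors' mean over both. The bait was made from injected mRNA and not from the endogenous gene, and whole embryos were lysed. An input or a control precipitate was not analysed here, so each value is a level in the precipitate and not an enrichment, and a transcript held by fewer cells cannot be told apart from one with less RNA per cell. Replicates were averaged before deposit, so no SD and no test between samples could be computed.

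Cyclins are regulatory proteins that activate cyclin-dependent kinases. The A- and B-type cyclins act in S phase and mitosis, the D- and E-type cyclins in G1, and a further set, among them cyclins C, H, K, L and T, acts with kinases that phosphorylate RNA polymerase II or act on transcription and splicing. Kinase activity is held back by inhibitor proteins and by phosphorylation that Wee1 and Myt1 add and Cdc25 phosphatases remove. CPEB proteins bind cytoplasmic polyadenylation elements in mRNA 3′ untranslated regions, and in the frog oocyte they control the poly(A) tail and translation of the cyclin B1 message, a classic target.

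The unit is RPKM, the number of reads divided by gene length and by library size, which allows levels to be compared between genes per length. A row at RPKM 1 or more was called detected. Low values shared by several rows were taken as 1 read in 1 of the samples, on gene models of a whole number of nucleotides. The steps fitted to them gave library denominators of 6576775 and 6551358 reads. This holds provided that the mean was a plain one and that the true depths lay within the range searched. On that scale RPKM 1 equals some 13.1 reads per kilobase in the libraries combined. Gene lengths were not used here, so all counting intervals below are exact 95% Poisson intervals for a gene model of 1 kb. They are narrower for longer models and wider for shorter ones, cover counting error only and leave out the spread between replicates. Whether the interval of a ratio holds 1, and so whether a pair is called separated, thus depends on the assumed length.

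Of the 67 members 49 (73.1%) were detected, against 46.8% of all rows with a gene name and 38.6% of all rows. None was listed at 0. Their median was 2.59 RPKM over all 67 rows and 4.72 RPKM over the 49 detected, against 0.854 and 3.17 RPKM for rows with a gene name. At RPKM 5 or more stood 24 members (35.8%), against 16.0% of rows with a gene name. At RPKM 20.0 the members' share was 1.49%, which is CCNG1 alone, against 3.74% of rows with a gene name. At RPKM 56.2 it was still 1.49%, against 1.28% of rows with a gene name. With a single member left, neither order says anything of the members as a set. Members ran from 0.0685 RPKM for CCNJ to 57.1 RPKM for CCNG1. Just inside the threshold was CCNH at 1.17 RPKM, and just outside it was a CCND2 row at 0.998 RPKM. Together the members summed to 345 RPKM, of which cyclins held 56.6%, and CCNG1 alone had 57.1 RPKM of that sum.

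**Figure D1:**
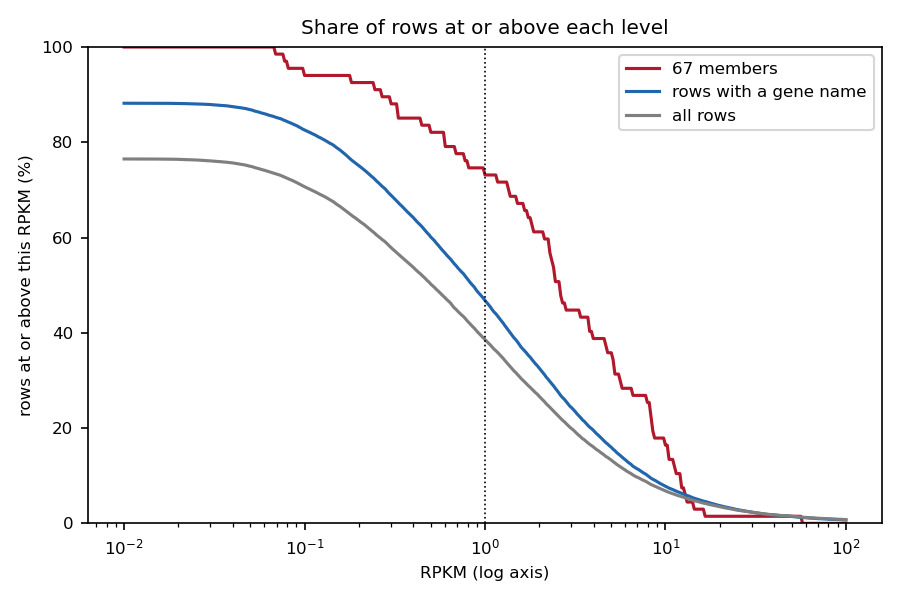
Share of rows in percent (vertical axis) at or above each RPKM (horizontal log axis) for the 67 members, for rows with a gene name and for all rows, with a dotted line at RPKM 1. At RPKM 1 the members' line stands at 73.1%, that of named rows at 46.8% and that of all rows at 38.6%. At RPKM 20.0 the members' line is lowest, at 1.49%, which is CCNG1 alone, against 3.74% and 3.48%. At RPKM 56.2 it is highest again, at 1.49% against 1.28% and 1.34%.

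All 5 mitotic cyclin rows were detected, against 46.8% of rows with a gene name. They lay within 2.28-fold of each other, with a median of 8.51 RPKM. The cyclin B1 gene CCNB1 (ENSDARG00000051923), whose product activates Cdk1 at entry into mitosis, had 8.51 RPKM with a counting interval of 7.01 to 10.2. That is about 112 reads per kilobase and rank 2697 of 33737 rows, above 92.0% of them. The named rows next to it were znf654 at 8.513 RPKM and MCRIP1 at 8.510 RPKM. CCNB1 was not the highest of the mitotic cyclins, with CCNA2 over CCNB1 at 1.34 (1.04 to 1.73), and 2302 rows of the table stood at RPKM 10 or more.

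CCNA2 (ENSDARG00000011094), the A-type cyclin of S phase and mitosis in dividing cells, was the highest mitotic cyclin at 11.4 RPKM (interval 9.68 to 13.4). The third B-type cyclin, ccnb3 (ENSDARG00000034855), had 9.94 RPKM. CCNA1 (ENSDARG00000043236), which in mammals is mainly a germline cyclin, had 8.37 RPKM. CCNB2 (ENSDARG00000036180), a B-type cyclin like CCNB1, was lowest at 5.02 RPKM (interval 3.88 to 6.38). Of the 4 neighbouring pairs in this order, 3 had a ratio whose counting interval held 1, and the exception was CCNA1 over CCNB2 at 1.67 (1.22 to 2.30). CCNB1 stood 1.70 times above CCNB2 (1.24 to 2.34). The ratio of ccnb3 to CCNB1 was 1.17 (0.9005 to 1.52), so they were not separated at this depth and assumed length.

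The G1 cyclins were far more uneven. The D-type cyclins activate Cdk4 and Cdk6, which phosphorylate the retinoblastoma protein, and 3 rows of this class were measured. One CCND2 row (ENSDARG00000051748) had 12.8 RPKM (10.9 to 14.9), a value above every mitotic cyclin. Its interval overlapped that of CCNA2 (9.68 to 13.4). The second CCND2 row (ENSDARG00000070408) had 0.998 RPKM (0.533 to 1.70), and the ratio between both rows was 12.8 (7.30 to 24.5). The names do not say which row is ccnd2a and which ccnd2b. The third row, ccnd3, had 2.43 RPKM (1.66 to 3.43). The name ccndx, a further D-type name placed among the other cyclins here, had 0.499 RPKM. The names ccnd1, ccne1 and ccne2 matched no row and were not analysed here, so nothing is given for cyclin D1 or the E-type cyclins.

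All 8 transcriptional cyclin rows were detected, against 46.8% of rows with a gene name. Their median was 6.99 RPKM and their range 1.17 to 13.0. The partners of Cdk9 in the elongation factor P-TEFb were highest, with the CCNT2 rows at 13.0 RPKM (ENSDARG00000036510) and 8.32 RPKM (ENSDARG00000036685) and CCNT1 at 11.2 RPKM. Cyclin L, which is linked to splicing, followed with ccnl1b at 8.52 RPKM and CCNL1 at 5.66 RPKM. These rows all stood in the range of the mitotic cyclins or above it. The partner of Cdk12 and Cdk13, ccnk, had 2.59 RPKM. The Mediator cyclin gene CCNC had 1.49 RPKM and CCNH, of the Cdk-activating kinase and the general factor TFIIH, 1.17 RPKM. The class thus held a higher part of cyclins T and L and a lower part of cyclins K, C and H, with CCNL1 over ccnk at 2.18 (1.44 to 3.38). The intervals of ccnk over CCNC, 0.971 to 3.21, and of CCNC over CCNH, 0.618 to 2.65, both held 1.

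Over detected rows the class medians were 8.51 RPKM for mitotic, 7.60 for G1 and 6.99 for transcriptional cyclins. The G1 median rested on 2 rows, and over all measured rows it was 2.43 RPKM while the others kept 8.51 and 6.99. The order of G1 and transcriptional cyclins thus turned with the filter on low values. Mitotic cyclins had the highest summary under each of the 5 summaries plotted, with ratios to transcriptional cyclins of 1.22 for the medians of detected rows and 1.64 for geometric means. No mitotic row was under RPKM 1 or shared a name, so the filter at RPKM 1 and the choice of 1 row per name could not change their median. With only rows at RPKM 5 or more kept, the order turned, at 8.51 RPKM for mitotic, 8.52 for transcriptional and 12.8 for G1 cyclins, the last a single row. Every mitotic cyclin was above the 3.17 RPKM median of detected named rows, as were 5 of 8 transcriptional and 1 of 3 G1 rows. That median leaves out undetected rows, and 23.5% of all rows with a gene name stood at RPKM 3.16 or more. Members of a class are not replicates, and no test was made between classes.

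**Figure D2:**
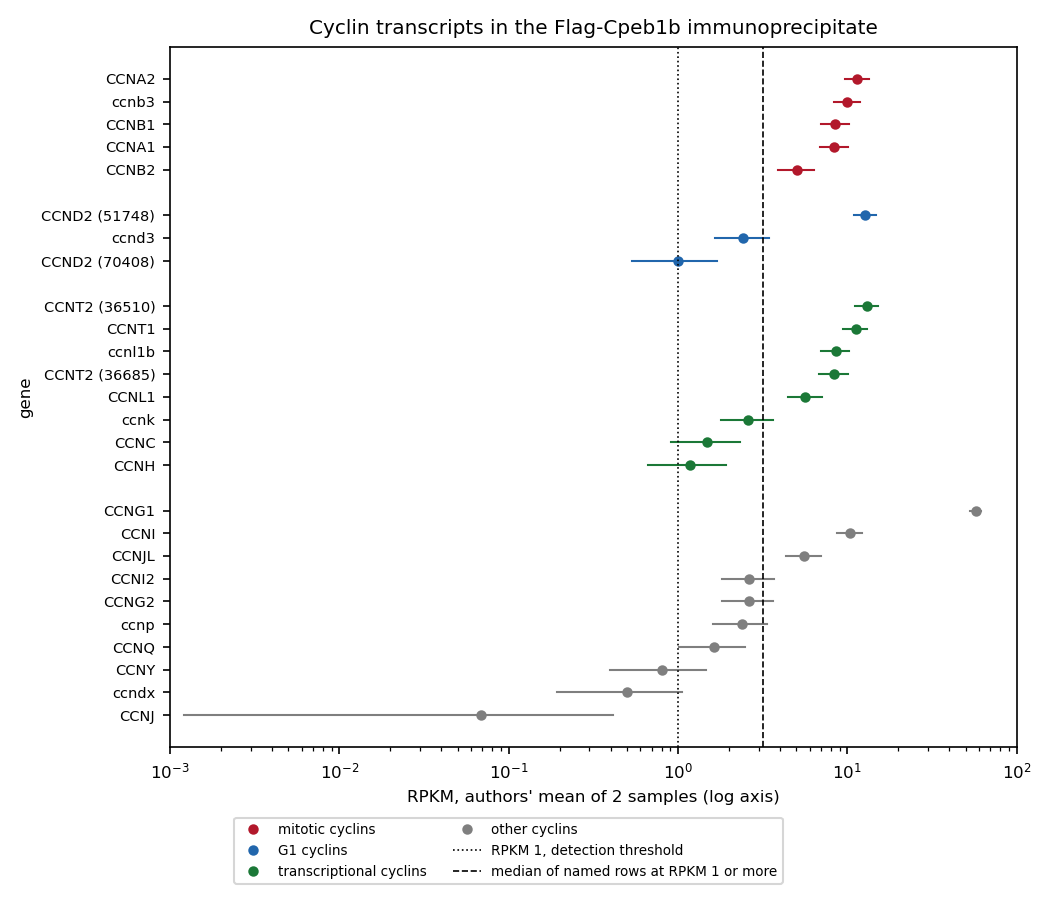
RPKM on a log axis for each of the 26 cyclin rows, coloured by class. Points are the authors' mean of both samples, bars are 95% counting intervals for a 1 kb gene model, lines mark RPKM 1 (dotted) and the median of detected named rows (dashed, 3.17 RPKM), and a number in brackets is the end of the identifier where a name stands on several rows. The 5 mitotic cyclins lie between 5.02 and 11.4 RPKM, while G1 and transcriptional cyclins reach down to 0.998 and 1.17 RPKM.

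**Figure D3:**
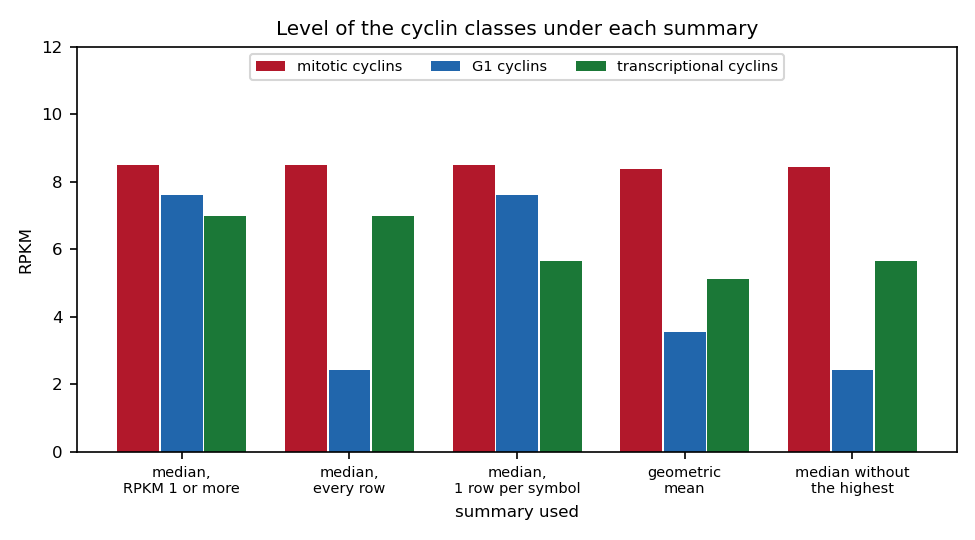
Summary level in RPKM (bars from 0) of mitotic, G1 and transcriptional cyclins under 5 summaries. The mitotic bar stays between 8.39 and 8.51 RPKM, whereas the G1 bar runs from 2.43 to 7.60 RPKM.

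The other cyclins included the highest member of all. CCNG1 (ENSDARG00000076667), an atypical cyclin, had 57.1 RPKM (53.1 to 61.4), about 750 reads per kilobase, at rank 444 and above 98.7% of all rows. It stood 3.50 times (3.003 to 4.09) above the next member, cdc25b. Its paralogue CCNG2 had 2.62 RPKM, and CCNG1 over CCNG2 was 21.8 (15.5 to 31.7). CCNI had 10.4 RPKM, CCNJL 5.52 RPKM and CCNI2 2.63 RPKM. Under RPKM 1 stood CCNY at 0.807, a membrane-bound cyclin that acts with Cdk14 in Wnt signalling, besides ccndx at 0.499 and CCNJ at 0.0685. Of the 10 other cyclins 7 (70.0%) were detected, against 46.8% of rows with a gene name. The median of those detected was 2.63 RPKM, lower than in the mitotic and transcriptional classes. The cyclin rows ccnp and CCNQ had 2.38 and 1.62 RPKM.

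Among cell cycle kinases, CDK1 (ENSDARG00000087554), the mitotic kinase and partner of the A- and B-type cyclins, was highest at 12.1 RPKM (10.3 to 14.1). CDK2, of S phase, had 6.57 RPKM, and CDK1 over CDK2 was 1.84 (1.41 to 2.42). The G1 kinases CDK6 and CDK4 had 4.62 and 3.32 RPKM, and their ratio was not separated from 1 (1.39, interval 0.926 to 2.101). The fifth row, cdk21, had 0.0813 RPKM, about 1 read per kilobase. CDK2 over CDK6 was 1.42, with an interval (1.01 to 2.01) that only just left out 1. Of the steps from CDK1 down to CDK4, only that from CDK1 to CDK2 was thus clearly separated by counting error.

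Of 8 transcriptional kinase rows 6 were detected, against 46.8% of rows with a gene name. The median of those detected was 6.503 RPKM, against 3.17 RPKM for detected rows with a gene name. The Mediator kinase CDK8 had 12.2 RPKM (10.4 to 14.3), close to CDK1. Its paralogue CDK19, which takes the same place in Mediator, had 0.681 RPKM, 18.0 times less (9.22 to 40.2). CDK12 and cdk13, which phosphorylate RNA polymerase II during elongation, had 10.3 and 5.24 RPKM, and the P-TEFb kinase CDK9 had 5.17 RPKM. CDK10, the partner of cyclin Q, had 7.77 RPKM and CDK7, of TFIIH, 2.27 RPKM. CDK20, which is known for a role at cilia and was placed in this class by its number alone, had 0.242 RPKM. The name cdk11 matched no row and was not analysed here.

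The Cdk5, Pctaire and Pftaire kinases, several of which are known from postmitotic neurons, had a lower median than the cell cycle and transcriptional kinases. Of 6 rows 4 (66.7%) were detected, against 46.8% of rows with a gene name. None stood at RPKM 5 or more, against 16.0% of rows with a gene name. The median was 2.06 RPKM over those detected and 1.76 RPKM over every row, against 3.17 and 0.854 RPKM for rows with a gene name. CDK17 had 3.75 RPKM, CDK16 2.32 RPKM, CDK14 1.80 RPKM and CDK5 1.72 RPKM. CDK18 and CDK15 had 0.327 and 0.180 RPKM. The genes of the Cdk5 activators p35 and p39 were also low, with the CDK5R1 rows at 0.326 and 0.0765 RPKM and the CDK5R2 rows at 1.35 and 0.598 RPKM.

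Kinase and cyclin levels of known pairs were set side by side for 13 pairs, chosen with the values known. CDK1 and CCNA2 were not separated, with a ratio of 1.06 (0.841 to 1.33), and CDK1 over CCNB1 was 1.42 (1.11 to 1.83). CDK1 over CCNB2 was higher, at 2.41 (1.80 to 3.26). In several transcriptional pairs the kinase stood well above the cyclin. CDK8 over CCNC was 8.22 (5.13 to 13.9), CDK10 over CCNQ 4.79 (2.98 to 8.03) and CDK12 over ccnk 3.97 (2.71 to 5.97). P-TEFb was the other way round, with CDK9 over CCNT1 at 0.463 (0.342 to 0.621), before the CCNT2 rows are counted. CDK2 over CCNA2 was 0.574 (0.436 to 0.754). CDK7 over CCNH was 1.93 (1.01 to 3.84). These are ratios of RNA per length in the precipitate and say nothing of protein.

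**Figure D4:**
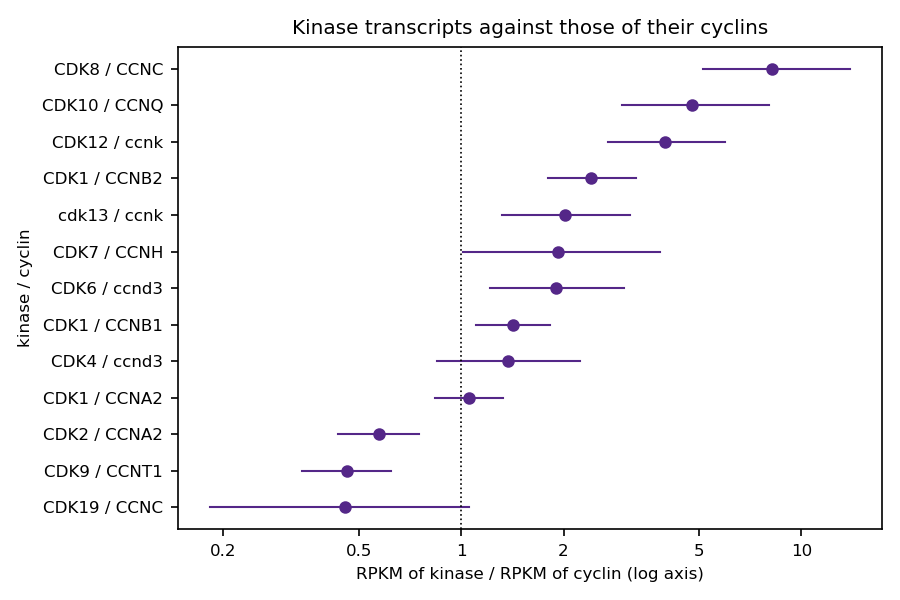
Ratio of kinase RPKM to cyclin RPKM (log axis) for 13 kinase and cyclin pairs. CDK4 and CDK6 are set against ccnd3 alone, and the CCND2 row at 12.8 RPKM, which was above both kinases, is not plotted. Points are ratios of the authors' mean values, bars are 95% counting intervals for 1 kb gene models and the dotted line marks 1. CDK8 over CCNC is highest at 8.22, and the lowest ratios are CDK19 over CCNC at 0.457 and CDK9 over CCNT1 at 0.463.

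Inhibitor transcripts were uneven, with 4 of 7 rows under RPKM 1. The p57 gene cdkn1ca (ENSDARG00000010878), whose product binds and blocks cyclin-kinase complexes as cells leave the cycle, had 14.4 RPKM (12.4 to 16.6), the third highest member. One p27 row, CDKN1B (ENSDARG00000029018), had 4.72 RPKM, and the other (ENSDARG00000054271) had 0.440 RPKM, with a ratio of 10.7 (4.59 to 31.1). The p21 gene cdkn1a, an inhibitor of several Cdks, had 1.83 RPKM, and cdkn1ca over cdkn1a was 7.88 (5.14 to 12.6). The INK4 genes, whose products block Cdk4 and Cdk6, were all under RPKM 1, with cdkn2a/b at 0.601, CDKN2C at 0.299 and CDKN2D at 0.267. Of 7 inhibitor rows 3 were detected (42.9%), a share near the 46.8% of all named rows. The class median was 0.601 RPKM over all rows and 4.72 over the detected.

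In the switch that controls Cdk1 by tyrosine phosphorylation, the row of the phosphatase gene cdc25b stood above those of both opposing kinases. It (ENSDARG00000010792) had 16.3 RPKM (14.2 to 18.7), second only to CCNG1 among the members and above 95.8% of all rows. WEE1 and pkmyt1, which encode the inhibitory kinases, had 3.95 and 2.76 RPKM. The ratio of cdc25b to WEE1 was 4.13 (3.04 to 5.71) and that to pkmyt1 5.92 (4.15 to 8.66), while WEE1 and pkmyt1 were not separated (1.43, interval 0.919 to 2.25). The second phosphatase row, cdc25d, had 0.0997 RPKM, about 1.31 reads per kilobase. The names cdc25a, cdc25c, wee2 and cdc20, the last the activator of the anaphase-promoting complex, matched no row, and these genes were not analysed here, so the comparison covers the named rows alone.

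The remaining 11 members encode proteins that bind cyclins or kinases or are named after them. Of these 7 (63.6%) were detected, against 46.8% of rows with a gene name, with a median of 2.28 RPKM. CDKN2AIPNL was highest at 8.15 RPKM. The centrosome protein gene cdk5rap2 had 3.74 RPKM, CDK5RAP3 2.43 RPKM and ccndbp1, whose product binds cyclin D, 2.28 RPKM. Among the lower ones were cdk5rap1, whose product modifies mitochondrial tRNA, at 0.763 RPKM, and the Cdk5 activators given above. CDKN3, a phosphatase of Cdks, and CDKN2AIP had 2.09 and 1.35 RPKM.

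**Figure D5:**
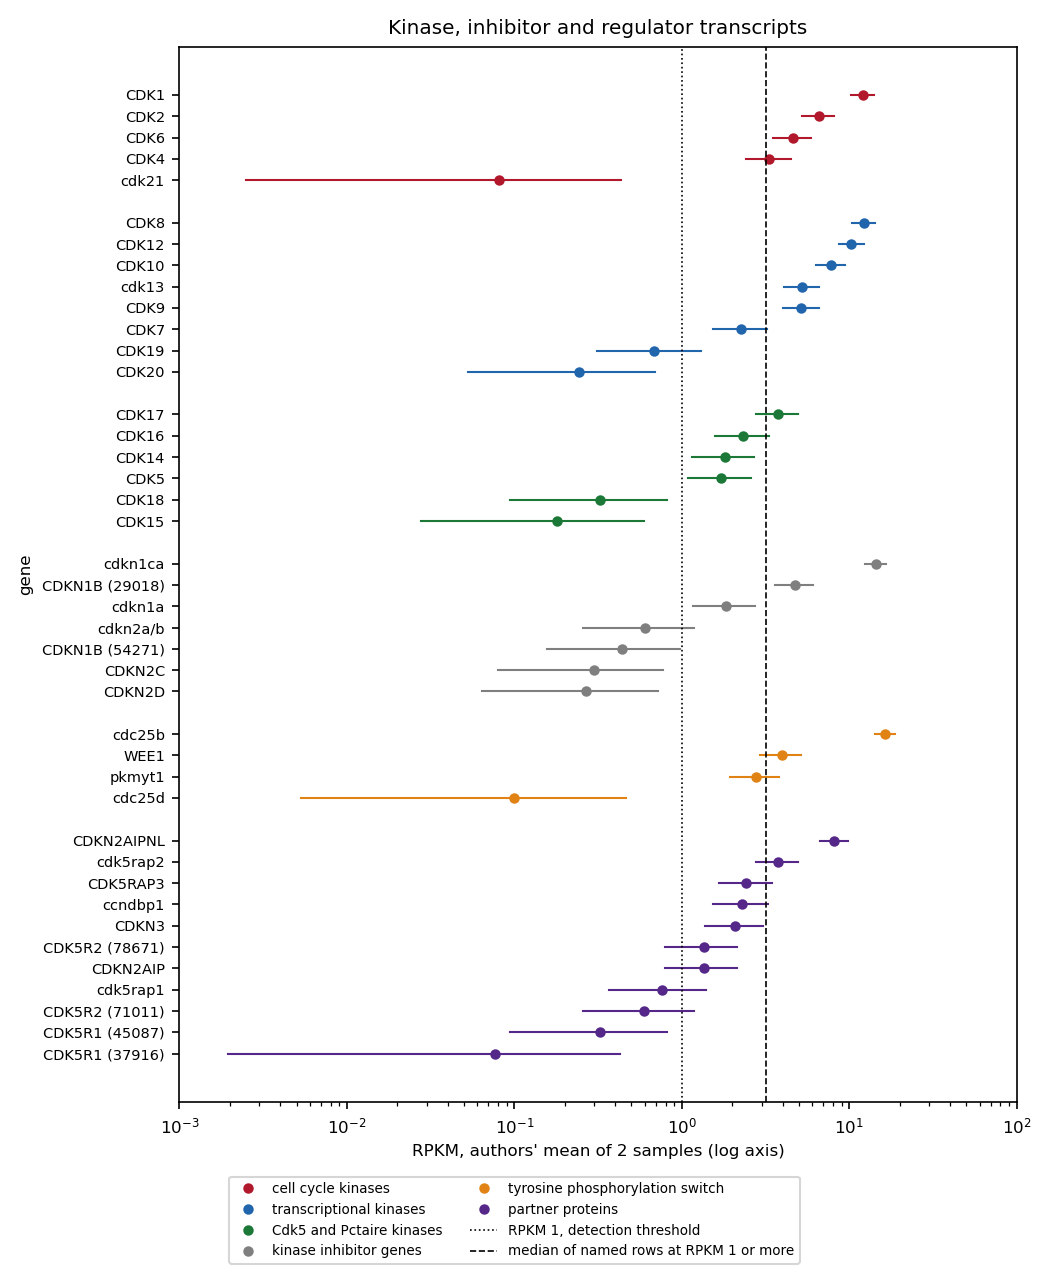
RPKM on a log axis for the 41 kinase, inhibitor, switch and partner protein rows, coloured by class. Points are the authors' mean of both samples, bars are 95% counting intervals for a 1 kb gene model, lines mark RPKM 1 (dotted) and the median of detected named rows (dashed, 3.17 RPKM), and a number in brackets is the end of the identifier where a name stands on several rows. The highest rows are cdc25b at 16.3, cdkn1ca at 14.4, CDK8 at 12.2 and CDK1 at 12.1 RPKM, and each class also holds rows under RPKM 1.

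Several paralogues stood apart. Of the 5 names on a pair of rows, 3 had ratios whose interval lay above 1, namely CCND2 (12.8), CDKN1B (10.7) and CCNT2 (1.56, interval 1.22 to 2.004). The CDK5R1 and CDK5R2 pairs were too low to be separated, with intervals that held 1. Among paralogues with names of their own, CCNI over CCNI2 was 3.94 (2.70 to 5.91), CDK12 over cdk13 1.97 (1.46 to 2.67) and ccnl1b over CCNL1 1.51 (1.11 to 2.05). How reads that match several places were counted is not given in the sources used here, so values of close copies are uncertain.

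Other genes of the pathway were taken from lists made by role, though with earlier results of these data known. Of 15 measured rows for the anaphase-promoting complex and its regulators, which destroy the mitotic cyclins, 14 were detected and the median of these was 6.23 RPKM. Its inhibitor gene fbxo5 led at 31.6 RPKM, above every member but CCNG1, followed by the activator gene FZR1 at 18.6 and the subunit gene CDC26 at 10.3 RPKM. The similarly named row fzr1b had 0.457 RPKM and was the only row of this list not detected. Of 18 RB and E2F rows, which link the G1 kinases to transcription, 17 were detected with a median of 3.44 RPKM. The 2 rows named TFDP1, a dimer partner of E2F, led at 10.3 and 10.2 RPKM, followed by E2F8 at 5.58 RPKM. All 12 rows for the SCF ubiquitin ligase and Cdk assembly were detected and had a median of 6.23 RPKM; the highest were the ligase genes SKP1 at 24.6 and RBX1 at 21.3 RPKM and LARP7, which binds the 7SK RNA that restrains P-TEFb, at 14.2 RPKM. Of 17 mitotic kinase and checkpoint rows 15 were detected, their median was 4.33 RPKM and the highest were the mitotic kinases plk1 at 25.9 and AURKB at 15.4 RPKM and the spindle checkpoint gene MAD2L1 at 12.4 RPKM. Over all rows with a gene name 46.8% were detected, and the median of those detected was 3.17 RPKM. The RB and E2F median of detected rows lay near it. Over every row, detected or not, the medians were 3.30 RPKM for RB and E2F and 0.854 RPKM for rows with a gene name. None of the rows of these lists was listed at 0. Of the list entries 4, 2, 3 and 1, in the order given, matched no row and were not analysed here.

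Transcripts known as CPEB targets in the frog oocyte ranged widely, with all 7 measured rows detected (fbxo43 matched no row) and a median of 7.63 RPKM. Over all rows with a gene name 46.8% were detected. The values are levels in the precipitate without an input beside them, so binding of these transcripts was not tested. The spindle factor gene TPX2 had 77.4 RPKM, CCNB1 8.51, CCNA1 8.37, aurka 7.63, CDK2 6.57, WEE1 3.95 and MOS, the kinase that drives oocyte maturation, 1.51 RPKM. The 4 of these that are members lay between 3.95 and 8.51 RPKM.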

How the data were processed

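RNA bound to anti-FLAG beads was fragmented and sequenced from 2 samples, per the labels' protocols. The authors deposited 1 RPKM value per gene, averaged over both, and gave no column names. Per the submitters' processing notes, the build was Zv9 and the tools included TopHat2 2.1.1 with Bowtie, bedtools 2.16.2, MACS2 2.0.10, Trimmomatic 0.36, cutadapt 1.13 and FastQC. Not given in the sources used here are the annotation, gene lengths, use of strand and treatment of reads with several matches. A gene name table paired 21939 identifiers (65.0%) with names.

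Depth was read from values of 0.4 to 2 RPKM shared by at least 3 rows (171 rows). Of these 135 (78.9%) gave whole lengths within 0.002 nt for 1 of 2 steps. The search covered a fixed range of steps and was tested on simulated data with depths inside that range. It could not return a depth outside the range, and the simulation could not show such a miss. Intervals use Python 3.11.15 and scipy 1.17.1: exact Poisson for a level and the exact conditional interval for a ratio. Both treat reads as independent molecules.

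Members, role classes and lists were chosen with earlier results of these data known. Every member of the main classes is named; of other cyclins, Cdk5 and Pctaire kinases and partner proteins the 4 highest and those under RPKM 1; of each pathway list the 3 highest; and all CPEB targets measured. A gene of the checkpoint list, besides the entries that matched no row, is not reported here. The further members named (CCNG2, ccnp, CCNQ, CDKN3, CDKN2AIP and the CDK5R2 row at 1.35 RPKM) and the ratios were picked after their values were seen. The pathway row fzr1b was also picked in this way. Protein sequences, planned for the A- and B-type cyclins, were not used here.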

Additional observations from a re-analysis of the deposited data

How the results depend on the processing

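With a threshold of RPKM 0.1 in place of 1, 63 of the 67 members were detected. The share at RPKM 0.1 or more was also high in the table at large, at 82.6% of rows with a gene name and 70.7% of all rows. With RPKM 5, 24 members in place of 49 were detected, against 16.0% of rows with a gene name. G1 cyclins had a median of 2.43 RPKM over every row, 12.8 RPKM at RPKM 5 and, with ccndx added after seeing the data, 1.71 RPKM over every row, against 7.60. Over every row the median was 0.601 RPKM for inhibitors (4.72 detected) and 1.35 RPKM for partner proteins (2.28 detected). At RPKM 5, which can only raise a median, it was 10.4 for other cyclins, 9.33 for cell cycle kinases, 14.4 for inhibitors, 16.3 for the tyrosine phosphorylation switch and 8.15 RPKM for partner proteins. The ratio of mitotic to G1 medians, 1.12, was 3.51 over every row, 3.48 without the highest member of each class, 2.36 for geometric means with a pseudocount of 1 RPKM and 4.97 with ccndx. That of mitotic to transcriptional medians, 1.22, was 1.64 for geometric means. That of transcriptional to G1 medians, 0.920, turned to 2.88 over every row, 1.44 for geometric means, 2.33 without the highest members, which leaves ccnd3 as the only detected G1 row, and 4.08 with ccndx. At RPKM 5 mitotic cyclins (8.51) had the lowest median of the 3 classes, with transcriptional at 8.52 and G1 at 12.8 RPKM. CCNB1 stood above 92.0% of all rows, 90.7% of named rows and 79.3% of detected rows. Without CDK10 and CDK20, a choice made after seeing the data, the transcriptional kinases had a median of 5.24 against 6.503 RPKM. No paired analysis was possible because all samples belong to 1 group, and no replicate could be left out since only their mean was given. Near RPKM 1 depth is the limit, with some 13.1 reads on a 1 kb model.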
